A study of Pyrus pyrifolia with 6 samples.

Results

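LOC103952209 is a pear gene described in the deposited table as a mitochondrial-like ubiquinol oxidase, the enzyme better known as alternative oxidase. It is 1 of 42933 genes in that table, and it was picked because its counts differed between bagged and untreated fruit, so its own levels are given as a description with no test. The 4 other genes whose description begins with ubiquinol oxidase were picked by name alone and are set beside it. The samples were the fruit skin of Cuiguan, a sand pear cultivar (Pyrus pyrifolia) whose skin russets in part, from 6-year-old orchard trees, profiled by RNA sequencing in 6 libraries. Of these, 3 came from fruits left without a bag and 3 from fruits that wore a single-layer white paper bag from day 20 after full bloom and a double-layer yellow-white bag from day 40. All fruits were picked on day 95. The labels call the libraries biological replicates without giving the number of fruits or trees in each, so p-values measure the spread between these libraries, which may be in part technical. The bag changes light, wetting and temperature around the fruit together, and no group separates them.

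Alternative oxidase sits in the inner mitochondrial membrane and passes electrons from ubiquinol straight to oxygen. It bypasses complexes III and IV of the respiratory chain, the cytochrome pathway, so that no protons are pumped at those steps, the energy leaves as heat, and respiration can go on when cyanide blocks complex IV. Plants carry a small nuclear gene family for it, in which AOX1-type genes are known to be induced by many stresses, and in Arabidopsis the signal from impaired mitochondria to the nucleus (retrograde signalling) runs in part through membrane-bound NAC factors and WRKY40. A related plastid enzyme, the plastid terminal oxidase, oxidises plastoquinol and supports carotenoid synthesis.

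LOC103952209 went from barely detected in untreated skin to the middle of the expression range in bagged skin. It lies on the plus strand of scaffold NW_008988128.1 from 420692 to 422569, positions as the authors list them, with a listed length of 1262 bases, and no other listed gene overlaps it. Untreated replicates 1 to 3 gave 18, 10 and 20 counts, and bagged replicates 1 to 3 gave 318, 145 and 387. Every bagged library stood above every untreated one, as it did for 10.7% of the 25139 genes with enough counts to be tested. For the smallest count, 10, the exact Poisson 95% interval is 4.80 to 18.4, and for the lowest bagged count, 145, it is 122 to 171, intervals that cover counting error alone.

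Scaled to library size with TMM factors, the level was 1.04, 0.508 and 1.24 CPM (counts scaled to library size) in untreated replicates 1 to 3 and 19.2, 8.29 and 20.2 CPM in bagged replicates 1 to 3. Bagged replicate 2 thus held the least of the bagged group, though still 6.70 times the CPM of the highest untreated library. The ratio of the highest to the lowest library was 2.44 within each group. The fitted log2 fold change of bagged over untreated was 4.11, a 17.3-fold difference, and the authors' deposited table lists 4.12 for the same gene. By mean CPM the gene stood at percentile 6.04 of the tested genes in untreated skin and at percentile 54.2 in bagged skin. Its log2 fold change ranked 11 among the 25139 genes and 4 among the 21285 genes with an average log2 CPM of at least 1. With skin profiled in bulk, a change in the share of cells that express the gene and a change of its RNA per cell cannot be told apart.

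The libraries differed in ways that touch this gene. Library totals ran from 15764049 to 19546285 counts, and bagged replicate 2, the bagged library lowest in the gene, was not the shallowest of its group. Along the leading principal component (46.8% of the variance in log2 CPM) untreated replicate 3 stood at -24.0, nearer to the bagged libraries (40.1 to 50.3) than untreated replicates 1 and 2 did (-52.0 and -59.8), and bagged replicate 2 was the bagged library nearest to the untreated ones. The order of the libraries for LOC103952209 was the same at those ends: untreated replicate 3 was its highest untreated library and bagged replicate 2 its lowest bagged one. Among 243 genes called higher in bagged skin, LOC103952209 left aside, untreated replicate 3 was the highest untreated library for 163 (67.1%, against 31.1% of all other tested genes) and bagged replicate 2 the lowest bagged library for 112 (46.1%, against 35.5%). The log2 fold change of LOC103952209 was 3.80 to 4.42 with any 1 library left out.

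None of the relatives of LOC103952209 was called. Per unit of gene length, in the authors' FPKM, the plastid member LOC103948237 (ubiquinol oxidase 4, chloroplastic/chromoplastic) was the most abundant, with 32.5, 30.6 and 28.0 FPKM in untreated and 28.2, 33.1 and 30.1 FPKM in bagged replicates 1 to 3. Its groups overlapped throughout, and its log2 fold change was 0.00 with a 95% interval of -0.22 to 0.22 (adjusted p = 0.9996 by the quasi-likelihood test of edgeR). This was the narrowest interval in the family, and it leaves out a change of the size seen in LOC103952209.

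The mitochondrial-like member LOC103937089 gave 7.55, 8.73 and 9.83 FPKM in untreated and 10.7, 12.3 and 8.28 FPKM in bagged replicates 1 to 3. Untreated and bagged values overlapped, and the log2 fold change was 0.26 ± 0.18 (SE; 95% interval -0.15 to 0.67; edgeR adjusted p = 0.541). LOC103959414, of the same description, gave 6.12, 7.12 and 9.10 FPKM in untreated and 10.3, 10.2 and 8.60 FPKM in bagged replicates 1 to 3. Here too the highest untreated library, replicate 3, exceeded the lowest bagged one, replicate 3, and the log2 fold change was 0.37 ± 0.17 (95% interval -0.03 to 0.77; edgeR adjusted p = 0.344). None of the 3 tested relatives was called, at an adjusted p below 0.05, by edgeR, DESeq2 or limma-voom, and none had an unadjusted p below 0.05 with edgeR, where edgeR called 2.67% of all tested genes (0.971% higher and 1.69% lower), DESeq2 5.98% and limma-voom 2.49%. The authors' deposited table gives these relatives adjusted p-values of 0.997, 0.720 and 0.440 in the same order.

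The last member, LOC103935164 (ubiquinol oxidase 2, mitochondrial-like), was close to silent. It had 3 counts in untreated replicate 3 and 0 in each other library, and was left out of the test by the filter on low counts. A count of 0 allows up to 3 counts, or 0.152 to 0.181 CPM in the 5 libraries where it was not seen.

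**Figure D1:**
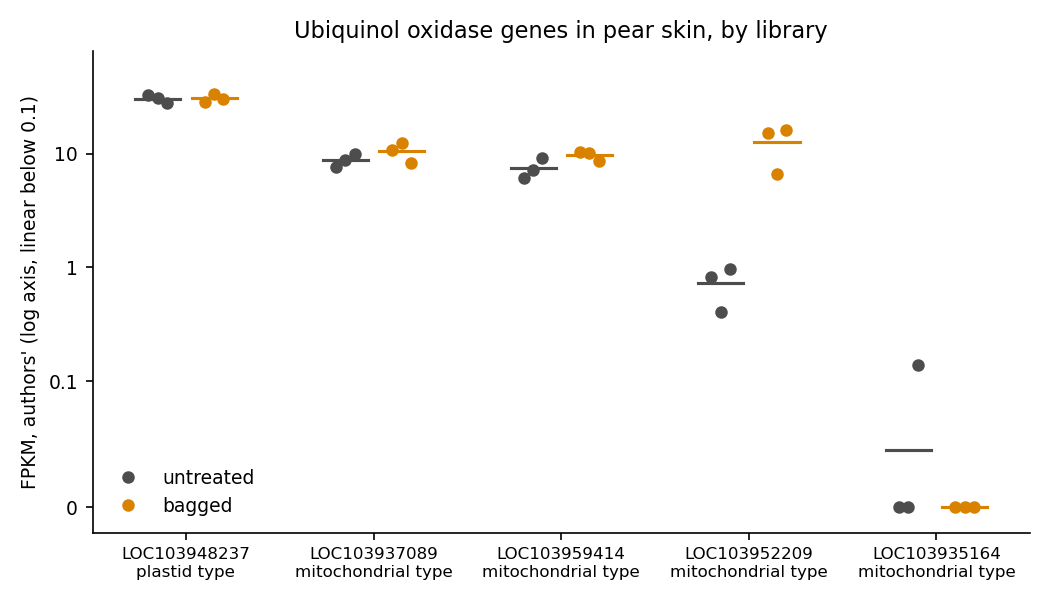
Authors' FPKM (log axis, linear below 0.1) of the 5 ubiquinol oxidase genes in the 3 untreated (grey) and 3 bagged (orange) libraries; points are libraries and bars group means. LOC103952209 moves from 0.402 to 0.972 FPKM up to 6.58 to 15.99 FPKM, while the points of the plastid gene and of the 2 well-expressed mitochondrial relatives overlap between groups.

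By mean FPKM the family was ordered as follows. In untreated skin the plastid gene led with 30.4 ± 2.25 FPKM (SD, n = 3), followed by LOC103937089 with 8.70 ± 1.14 and LOC103959414 with 7.45 ± 1.51, whose ranges overlap, and LOC103952209 came well below them at 0.732 ± 0.295. In bagged skin the plastid gene still led with 30.5 ± 2.48 FPKM. LOC103952209 followed with 12.6 ± 5.22 FPKM, LOC103937089 with 10.4 ± 2.04 and LOC103959414 with 9.67 ± 0.933. The spread of LOC103952209 in bagged skin took in both relatives, so the order of these mitochondrial genes in bagged skin is not resolved. In bagged replicate 2 it was the lowest of these 3, as in the untreated libraries, and in bagged replicates 1 and 3 the highest.

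Summed over the 4 mitochondrial genes, ubiquinol oxidase transcripts came to 14.5, 16.2 and 20.0 FPKM in untreated and 36.2, 29.1 and 32.9 FPKM in bagged replicates 1 to 3. LOC103952209 supplied 5.66%, 2.47% and 4.85% of that sum in the untreated libraries and 42.0%, 22.6% and 48.6% in the bagged ones. Its share was higher in every bagged library than in any untreated one, and was lowest among the bagged libraries in replicate 2. Without it, the sum was 16.2 ± 2.71 FPKM in untreated and 20.1 ± 2.90 FPKM in bagged skin (SD, n = 3), and the groups overlapped. No source used here gives how the authors' counting treated reads that match several family members, and reads of near-identical stretches may be split between them.

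**Figure D2:**
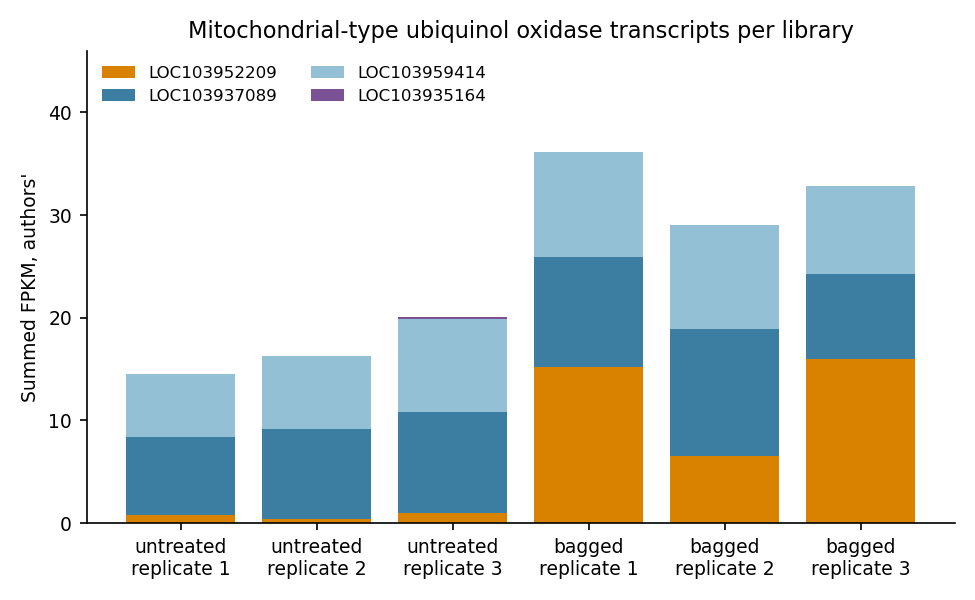
Summed authors' FPKM of the 4 mitochondrial-type ubiquinol oxidase genes in each library, stacked by gene. The orange block of LOC103952209 makes up 2.47% to 5.66% of the bar in untreated and 22.6% to 48.6% in bagged libraries, and the blue blocks of its relatives vary less.

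None of the genomic neighbours of LOC103952209 was called. Of the 3 listed genes on each side, 5 were tested, with 0 calls by edgeR, DESeq2 and limma-voom. There was 1 unadjusted edgeR p below 0.05, where 15.9% of all tested genes fell. The nearest, LOC103952210, described as SULFUR DEFICIENCY-INDUCED 2 and starting 3443 bases beyond the end of the oxidase gene, gave 13.2, 18.4 and 20.5 CPM in untreated and 23.3, 23.1 and 25.8 CPM in bagged replicates 1 to 3. Its groups did not overlap, the log2 fold change was 0.47 ± 0.16 (SE) and it had an unadjusted p of 0.0227 but an adjusted p of 0.215 (edgeR). On the other side the prefoldin subunit 1-like gene LOC103952208, 12504 bases away, had a log2 fold change of -0.20 ± 0.14 (edgeR adjusted p = 0.547). LOC103952206, LOC103952207 and LOC103952211 had log2 fold changes of -0.12, -0.03 and -0.18, and LOC103952248 had no count in any library.

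The alternative oxidase shares its electron pool with other enzymes that loosen the tie between respiration and ATP. Alternative NAD(P)H dehydrogenases feed that pool without pumping protons, in place of complex I. Of 6 listed genes 4 were tested and none was called by edgeR, DESeq2 or limma-voom. At an unadjusted edgeR p below 0.05, where 15.9% of all tested genes fell, 1 was higher. The best expressed per length, LOC103944461, an external B1 type, gave 35.0, 32.5 and 30.2 CPM in untreated and 28.3, 41.0 and 36.1 CPM in bagged replicates 1 to 3, overlapping groups with a log2 fold change of 0.11 ± 0.14 (edgeR adjusted p = 0.772). The median log2 fold change of the list was 0.10, against -0.01 over all tested genes.

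Of the uncoupling proteins, carriers that let protons or metabolites cross the inner membrane, 8 of 9 listed genes were tested and none was called by edgeR, DESeq2 or limma-voom. At an unadjusted edgeR p below 0.05, where 15.9% of all tested genes fell, 2 were higher. The median log2 fold change was 0.35. The most abundant per length, LOC103934535, is described as uncoupling protein 5-like, a type that in Arabidopsis is also known as a dicarboxylate carrier. It gave 138, 167 and 381 CPM in untreated and 469, 421 and 790 CPM in bagged replicates 1 to 3. All bagged libraries were above all untreated ones, as for 10.7% of all tested genes. The spread within groups was wide, and the log2 fold change of 1.29 ± 0.41 had an edgeR adjusted p of 0.169. Without untreated replicate 3 it was 1.87 with an adjusted p of 0.0264, and with all 6 libraries and the replicate numbers as a block it was 1.38 (adjusted p = 0.0142), so the call depends on the setting. A second such gene, LOC103962858, named after its values were seen, gave 22.8, 26.6 and 58.4 CPM in untreated and 76.7, 63.5 and 103 CPM in bagged replicates 1 to 3 (1.18 ± 0.35, edgeR adjusted p = 0.153). In both genes untreated replicate 3 was again the highest untreated library and bagged replicate 2 the lowest bagged one.

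The respiratory chain complexes and the ATP synthase held no called gene. Of these, the alternative oxidase bypasses complexes III and IV only. Of 135 tested genes of complexes I to IV, cytochrome c and the mitochondrial ATP synthase, edgeR called 0, DESeq2 0 and limma-voom 0, and 8 were higher and 1 lower at an unadjusted p below 0.05, where 15.9% of all tested genes fell. Their log2 fold changes ran from -0.66 to 0.54 with a median of 0.03. In the bypassed part they ran from -0.29 to 0.35 for complex III and from -0.66 to 0.30 for cytochrome c and complex IV. The median was 0.06 over 56 genes of complex I, which oxidises NADH, 0.03 over 17 of complex II, 0.01 over 20 of complex III, 0.04 over 26 of cytochrome c and complex IV, and 0.02 over 16 of the ATP synthase.

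The member of each complex with the highest mean FPKM gives the scale, although other members had more CPM in some of the complexes. The complex I subunit gene LOC103933284 had 111 ± 10.1 CPM (SD, n = 3) in untreated and 116 ± 12.5 in bagged skin, and the succinate dehydrogenase gene LOC103932925 had 177 ± 30.0 and 171 ± 23.4. The complex III gene LOC103927566 had 108 ± 6.16 and 114 ± 10.2 CPM. These differences are all within the spread of the libraries. The same was true of the cytochrome oxidase subunit 6a gene LOC103964657 with 81.9 ± 6.89 and 86.3 ± 6.02 CPM and of the ATP synthase beta gene LOC103947063 with 429 ± 16.2 and 438 ± 13.4 CPM.

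Genes of pyruvate and citric acid metabolism, which in part supply the chain with substrate, were likewise not called by edgeR. The list of pyruvate dehydrogenase, citric acid cycle and malic enzyme genes also takes in cytosolic and plastid forms and ATP-citrate synthase. It had 76 tested genes, of which edgeR and limma-voom called 0 and DESeq2 1 (higher). That gene, LOC103961317, named after its values were seen, is an ATP-citrate synthase beta chain gene (log2 fold change 0.38, DESeq2 adjusted p = 0.0138). The list had a median log2 fold change of 0.11 and a range of -2.77 to 1.20, with 6 genes higher and 2 lower at an unadjusted edgeR p below 0.05 (15.9% of all tested genes). Its highest member by mean FPKM, LOC103962461, is described as NADP-dependent malic enzyme-like but listed as a transcribed pseudogene, and had 763 ± 126 CPM in untreated and 800.2 ± 54.0 in bagged skin (SD, n = 3). Of the mitochondrial antioxidants (manganese superoxide dismutase, peroxiredoxin 2F, thioredoxin O) 9 were tested and none was called by any of these tools or at an unadjusted p below 0.05. Their log2 fold changes were not uniform and ran from -0.52 to 1.99, with a median of 0.06. The peroxiredoxin 2F gene LOC103954122, the highest of them by mean FPKM over the 6 libraries, had 40.8 ± 3.36 and 41.9 ± 2.58 CPM. The thioredoxin O1-like gene LOC103940096, named after its values were seen, had 44.1 and 46.1 CPM (group means).

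**Figure D3:**
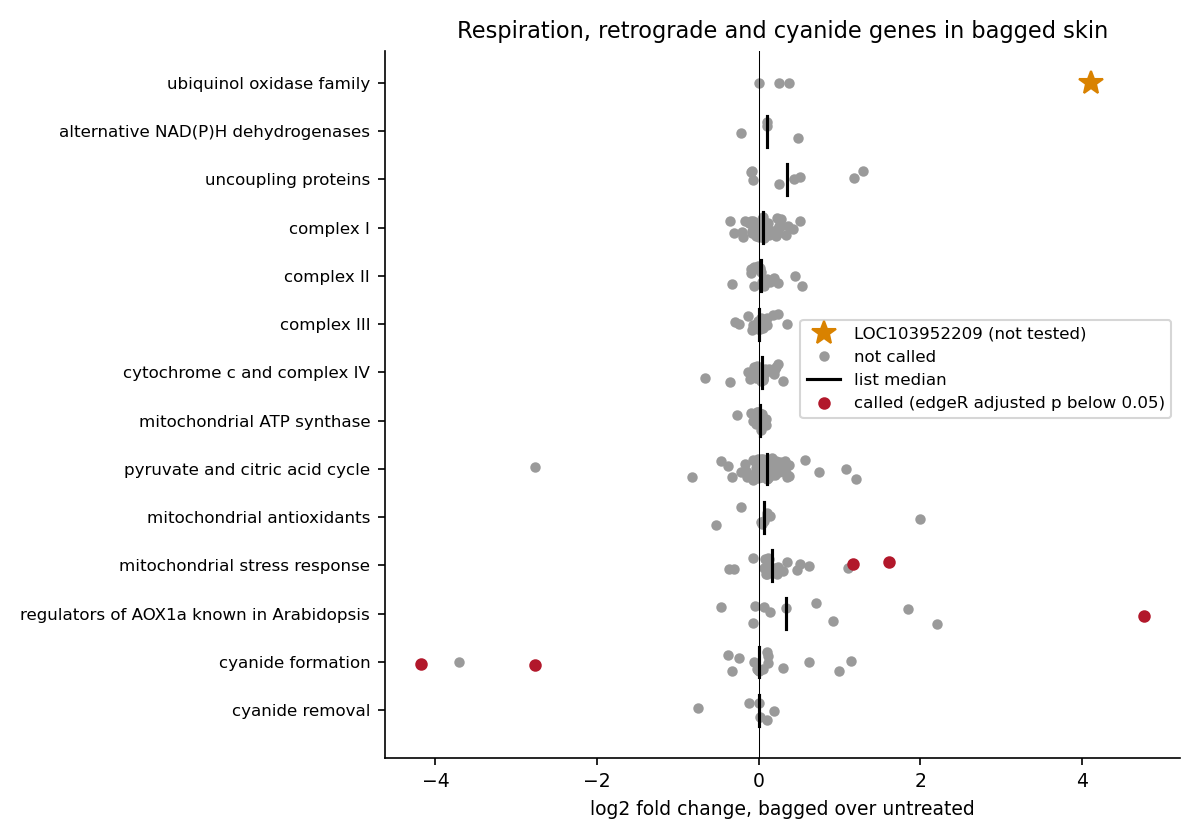
Log2 fold change of bagged over untreated skin for every tested gene of each list (grey, not called; red, edgeR adjusted p below 0.05; black bars, list medians; vertical scatter only separates points). LOC103952209, the star at 4.11, was chosen for its difference. Its tested relatives lie at 0.00 to 0.37, and complexes I to IV, cytochrome c and the ATP synthase at -0.66 to 0.54. Of the other listed genes, LOC103938975 lies further out at 4.77 and LOC108867073 lies at -4.18.

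Genes tied to mitochondrial stress and to the control of alternative oxidase held a few called members. Of 22 tested mitochondrial stress genes (AAA-ATPases of the BCS1 type, mitochondrial heat shock proteins, prohibitins, dicarboxylate carriers) 2 rose and none fell, 9.09% against 2.67% over all tested genes, counts too small to read further. DESeq2 called 3 higher (5.98% of all tested genes called) and limma-voom 2 higher (2.49%), and the median log2 fold change was 0.17. At an unadjusted edgeR p below 0.05, where 15.9% of all tested genes fell, 5 were higher and none lower. Both genes that rose are described as AAA-ATPase ASD, mitochondrial-like, members of a family of membrane ATPases of which Arabidopsis relatives in the outer mitochondrial membrane are known stress-response genes.

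The first, LOC103928485 (scaffold NW_008988451.1, 255752 to 257744), gave 1.91, 2.18 and 4.27 CPM in untreated and 7.62, 8.52 and 9.46 CPM in bagged replicates 1 to 3. The groups did not overlap and the log2 fold change was 1.62 ± 0.31 (edgeR adjusted p = 0.0432). The second, LOC103928489 (276379 to 278127 on the same scaffold), gave 15.9, 11.2 and 22.5 CPM in untreated and 36.5, 33.0 and 42.0 CPM in bagged replicates 1 to 3, again without overlap, a log2 fold change of 1.17 ± 0.23 (edgeR adjusted p = 0.0474). Each call was lost on leaving out any of the 6 libraries except untreated replicate 3, with adjusted p-values of 0.109 to 0.124 for the first and 0.0686 to 0.144 for the second. With any 1 library left out the log2 fold changes were 1.41 to 2.06 and 0.95 to 1.46, and calls over all genes were fewer as well for those 5 libraries.

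These genes are part of a cluster, in which 4 of the 5 listed AAA-ATPase ASD genes lie between 240186 and 278127. The other clustered members were too low to test. LOC103928483 had 0, 0 and 0.309 CPM in untreated and 0.907, 0.915 and 0.522 CPM in bagged replicates 1 to 3, and LOC103928486 reached at most 0.242 CPM. The fifth, LOC103958781, lies on another scaffold and stayed between 37.1 and 38.6 CPM in untreated and between 40.7 and 42.6 CPM in bagged libraries, groups that do not overlap but with a log2 fold change of 0.13 ± 0.08 (edgeR adjusted p = 0.449). As neighbours of the same description may be close copies, how their reads were divided is uncertain. LOC103928483, LOC103928486 and LOC103958781 were named after their values were seen.

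Of 11 tested regulators that act on AOX1a in Arabidopsis (NAC factors of retrograde signalling, WRKY15, WRKY40, the kinase CDKE1), 1 rose and none fell, 9.09% against 2.67% over all tested genes, with a median log2 fold change of 0.34. DESeq2, which called 5.98% of all tested genes, called 4, and limma-voom, which called 2.49%, called 1, all higher. At an unadjusted edgeR p below 0.05, where 15.9% of all tested genes fell, 4 were higher and none lower. These counts too are small to read further. The called gene, LOC103938975, is described as a probable WRKY40, in Arabidopsis a repressor of AOX1a. It had 0, 3 and 3 counts in untreated and 101, 17 and 52 counts in bagged replicates 1 to 3. The untreated level is at the floor of 3 counts, so its log2 fold change of 4.77 ± 0.92 (edgeR adjusted p = 0.0421) is imprecise, and the call was lost with limma-voom (adjusted p = 0.121) and on leaving out any library but bagged replicate 2 (0.0802 to 0.121), with log2 fold changes of 3.96 to 5.22 over the 6 libraries left out in turn.

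The other WRKY40 genes, named after their values were seen, were all higher on average in bagged skin but were not called by edgeR. LOC103938977, on the same scaffold, gave 6.99, 5.38 and 23.1 CPM in untreated and 47.1, 38.1 and 77.99 CPM in bagged replicates 1 to 3, without overlap (log2 fold change 2.21 ± 0.54, adjusted p = 0.0881 with edgeR, 0.0458 with limma-voom and 0.032 with DESeq2). LOC103945359 had a log2 fold change of 1.85 ± 0.40 (edgeR adjusted p = 0.060), LOC103941164 of 0.92 ± 0.32 and LOC103953663 of 0.71 ± 0.39. DESeq2 called LOC103945359 (adjusted p = 1.57e-04) and LOC103941164 (0.0305), whose groups did not overlap. It did not call LOC103953663 (0.622), whose groups overlapped. None of these was called by limma-voom (adjusted p = 0.0653, 0.155 and 0.397 in the same order).

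The NAC genes of the list were not called. LOC103931956, described as NAC17-like, the counterpart by name of an Arabidopsis NAC factor of retrograde signalling, gave 93.4, 92.7 and 102 CPM in untreated and 113, 94.9 and 110.0 CPM in bagged replicates 1 to 3. The groups overlapped, and the log2 fold change was 0.14 ± 0.09 (edgeR adjusted p = 0.513). LOC103938370 (NAC78-like) and LOC103951717 (NAC53-like) had log2 fold changes of 0.06 ± 0.09 and -0.05 ± 0.07, and the ABI4-like gene LOC103937547 had 2 counts in all. These genes were named after their values were seen.

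**Figure D4:**
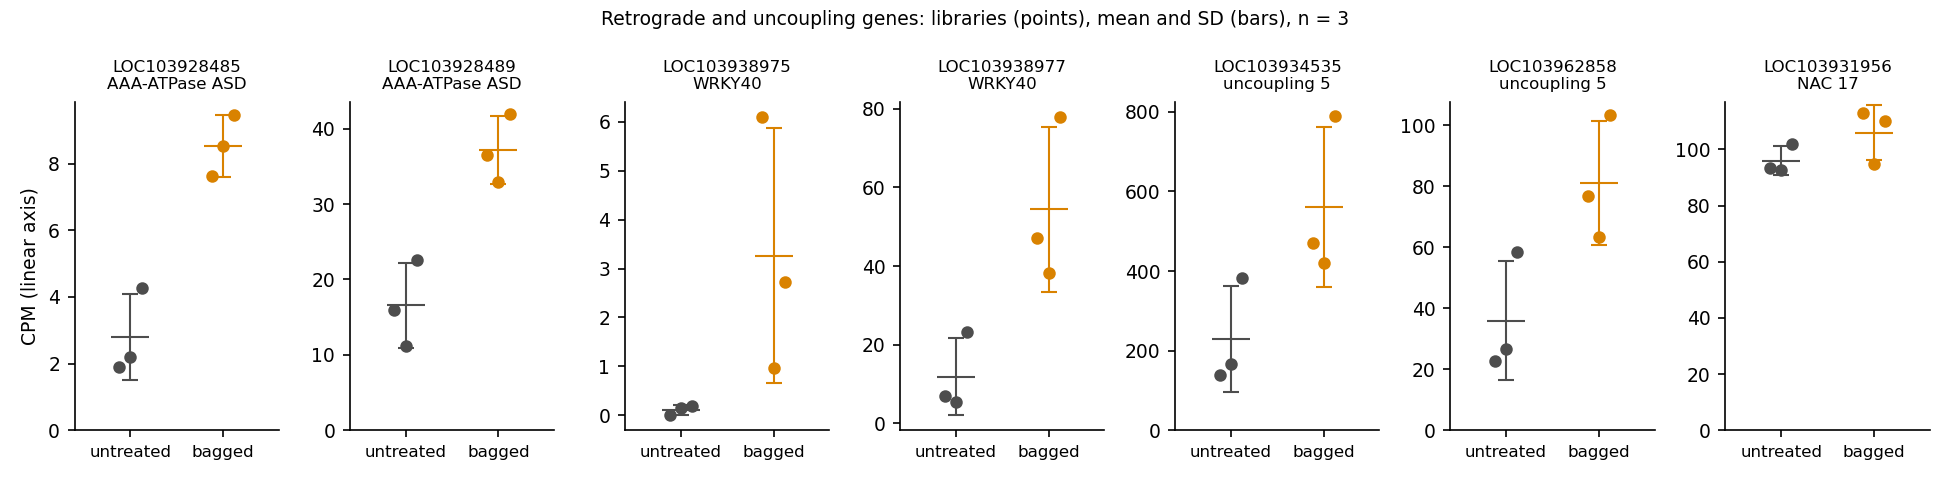
CPM (linear axes, a scale for each gene) of 7 genes tied to mitochondrial stress, alternative oxidase control and uncoupling in the 3 untreated (grey) and 3 bagged (orange) libraries; points are libraries, bars the mean and SD. Of the genes shown edgeR called LOC103928485, LOC103928489 and LOC103938975, and the NAC17-like gene overlaps between groups.

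Since alternative oxidase keeps working when cyanide blocks complex IV, genes that form or remove cyanide were counted too. The list of cyanide formation takes in homologs of the ethylene-forming enzyme ACC oxidase and mandelonitrile lyases. Of its 18 tested genes 2 fell and none rose, 11.1% against 2.67% of all tested genes called and 1.69% called lower. DESeq2 called 1 higher and 3 lower (5.98% of all tested genes called) and limma-voom 1 lower (2.49%). At an unadjusted edgeR p below 0.05, where 15.9% of all tested genes fell, 2 were higher and 3 lower. Such counts are too small to read as a result about the list, whose median log2 fold change was 0.00. The 2 genes that fell were LOC108867073, described as (R)-mandelonitrile lyase 2-like (such enzymes release cyanide from a cyanohydrin), with 7.63 ± 4.12 CPM in untreated and 0.418 ± 0.110 in bagged skin (SD, n = 3; -4.18 ± 0.48, edgeR adjusted p = 0.0087), and LOC103961663, an ACC oxidase homolog 4-like gene, with 1.44 ± 0.388 and 0.204 ± 0.141 CPM. The latter was listed for its name as a homolog, and whether its product forms cyanide was not tested. The call of LOC103961663 (edgeR adjusted p = 0.0416) was lost on leaving out any 1 of the 6 libraries (0.0586 to 0.132, with log2 fold changes of -3.32 to -2.37) and with limma-voom (0.0527). Of 6 genes of cyanide removal none was called by edgeR or limma-voom, while DESeq2 called 1 lower (5.98% of all tested genes called). The best expressed of them per length, the cyanoalanine synthase gene LOC103940809, had 88.3 ± 20.2 and 81.7 ± 12.8 CPM.

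The genes whose profile over the 6 libraries was most like that of LOC103952209 were found by the root mean square difference of log2 CPM, each gene centred on its own mean, among 16618 tested genes with a description and an average log2 CPM of at least 1. These genes were picked for their likeness, so their differences are given with no test. The closest was LOC103953732, a probable WRKY70, a factor known in Arabidopsis defence signalling, at a difference of 0.353. It gave 3.70, 2.79 and 9.03 CPM in untreated and 68.9, 30.8 and 74.4 CPM in bagged replicates 1 to 3, with the same library lowest in each group as for the oxidase gene. Next came LOC103933301, a DETOXIFICATION 49-like transporter gene of the MATE family, at 0.409, with 0.231, 0.102 and 0.804 CPM in untreated and 6.59, 3.09 and 10.6 CPM in bagged replicates 1 to 3. In this gene too bagged replicate 2 held less than the other bagged libraries.

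LOC103956492, described as patatin-like protein 2 (patatins cut acyl chains from lipids), followed at 0.551, and the salicylate carboxymethyltransferase-like gene LOC103967120 at 0.571. Both reached their highest level in bagged replicate 1 (39.2 and 51.4 CPM), where LOC103952209 had its own highest level in bagged replicate 3. LOC103947323, a STRICTOSIDINE SYNTHASE-LIKE 10-like gene, stood at 0.612 and LOC103966167, a heavy metal-associated isoprenylated plant protein 3-like gene, at 0.636. LOC103947323 had the narrowest bagged range of the 6, 4.35, 4.46 and 5.54 CPM, beside 0.636, 0.305 and 0.681 CPM in untreated replicates 1 to 3. The median difference over all candidates was 2.04, and the gene at rank 7 stood at 0.648. None of them is a listed gene of respiration.

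**Figure D5:**
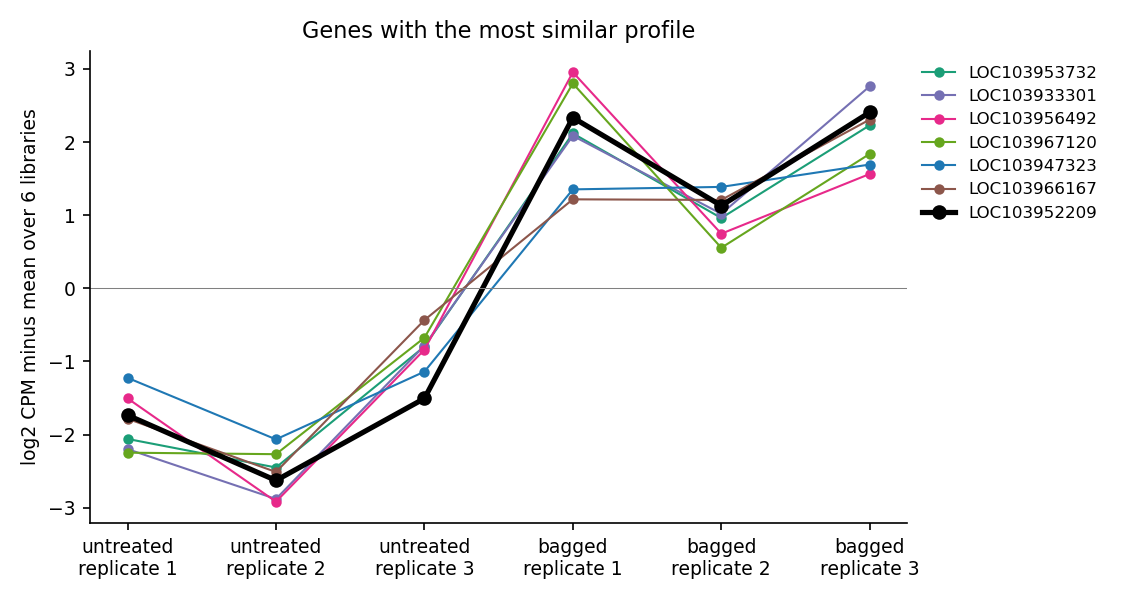
Log2 CPM minus the mean over 6 libraries for LOC103952209 (thick black line) and the 6 genes with the smallest root mean square difference from it (0.353 to 0.636); lines join the libraries of a gene and imply no order. All 7 are below 0 in the untreated and above 0 in the bagged libraries, and in 5 of the 6, barely so in LOC103966167, bagged replicate 2 is the lowest bagged library as in LOC103952209.

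Markers of tissues in a fruit peel did not all move with the groups. The summed level was lower in bagged libraries for cork genes and higher for flesh sugar genes. For epidermis and vascular genes the sums overlapped between groups. Of 25 listed genes of epidermis and cuticle 14 were tested, 2 rose and 1 fell (21.4% called, against 2.67% of all tested genes), with a median log2 fold change of 0.62. DESeq2 called 5 higher and 1 lower (5.98% of all tested genes called) and limma-voom 2 higher and 1 lower (2.49%). At an unadjusted edgeR p below 0.05, where 15.9% of all tested genes fell, 8 were higher and 2 lower. The list is small and its members went both ways. The gene that fell, LOC103962994, is described as ABC transporter G family member 32-like. It had 107 ± 29.9 CPM in untreated and 13.3 ± 6.08 CPM in bagged skin (SD, n = 3; edgeR adjusted p = 0.0082). Its call held with any 1 library left out, with log2 fold changes of -3.45 to -2.75. The genes that rose, LOC103947136 and LOC103947140, are described as 3-ketoacyl-CoA synthase 6 and 3-ketoacyl-CoA synthase 6-like, of wax synthesis, and their calls were lost on leaving out any of 5 and of 4 libraries (adjusted p 0.0522 to 0.0788 and 0.0819 to 0.101), with log2 fold changes of 1.33 to 1.71 and 1.04 to 1.33. Their listed positions overlap, so how their reads were divided is uncertain. The summed level of the list was 314 to 353 CPM in untreated and 259 to 376 CPM in bagged libraries. Among them 2 MERISTEM L1-like genes, a cytochrome P450 77A3-like gene and an ECERIFERUM 3-like gene had no count. Of 15 cork genes 11 were tested and 8 fell (72.7%, against 1.69% of all tested genes called lower), all 15 had counts, and the sum was 270 to 428 CPM in untreated and 90.4 to 110 CPM in bagged libraries. The cytochrome P450 86A1 gene LOC103963213, of suberin synthesis, had 28.8 ± 6.82 and 3.02 ± 1.24 CPM (SD, n = 3). The sum of 18 flesh sugar genes was 674 to 811 CPM in untreated and 918 to 1019.9 CPM in bagged libraries, with none of 13 tested genes called, and an acid beta-fructofuranosidase-like gene at 0. For 12 vascular genes it was 48.6 to 117 and 52.3 to 57.9 CPM, with none of 7 called and 2 PHLOEM PROTEIN 2-LIKE A9 genes at 0. For flesh and vascular genes limma-voom called 0 as well. DESeq2, which called 5.98% of all tested genes, called 3 flesh genes higher and 1 lower and 1 vascular gene lower. Unadjusted edgeR p-values were below 0.05 for 15.9% of all tested genes. Among flesh genes 3 were higher and 2 lower at that level, and among vascular genes 1 was higher and 1 lower. Such counts are too small to read further. The part of the cork, epidermis and flesh markers in the level of LOC103952209 was not tested.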

How the data were processed

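Skin RNA was sequenced in 3 untreated and 3 bagged libraries prepared with the NEBNext Ultra kit after CTAB extraction, per the labels' protocols. Reads were aligned with HISAT2, per the submitters' processing notes. The sources used here do not give the read counter, its use of strand, the reference build or the gene models. The authors deposited whole-number counts and FPKM per gene and library for 42933 genes, with their own log2 fold change and p-value columns and their gene positions, lengths and descriptions. The authors' deposited group means, a signal scaled in a way no header states, were not used. The counts were fitted in R 4.3.3 with edgeR 4.0.16 (quasi-likelihood test, TMM factors, filterByExpr with a minimum count of 10 and minimum total of 15, leaving 25139 genes), without a replicate block, and p-values were adjusted over all tested genes by the Benjamini-Hochberg method; called means an adjusted p below 0.05. CPM uses the TMM factors. DESeq2 1.42.0, limma-voom (limma 3.58.1) and limma on log2(FPKM + 1) or log2(FPKM + 0.1) of the deposited FPKM were alternatives, as were other scalings and filters, a replicate block and each library left out. Scripts were tested on simulated data. Genes were named by a rule: the ubiquinol oxidase genes, 3 neighbours on each side, up to 4 called members of each list (otherwise the member of highest mean FPKM) and the 6 most alike genes. Lists were drawn by words in the gene descriptions. The members and lists were chosen with earlier results of these data known.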

Additional observations from a re-analysis of the deposited data

How the results depend on the processing

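The log2 fold change of LOC103952209 stayed between 3.80 and 4.42 under 15 of 16 alternatives; with limma on log2(FPKM + 1) it was 2.90, where the added 1 exceeds the untreated FPKM. None of its 3 tested relatives was called under any alternative, with a lowest adjusted p of 0.174. Over all genes, 244 were called higher and 426 lower; DESeq2 called 756 and 745, and leaving out 1 library gave 70 to 306 and 135 to 386. Of the listed genes of respiration, retrograde signalling and cyanide, 3 were called higher and 2 lower. That became 9 and 4 with DESeq2, 5 higher without the low-count filter, and 1 lower with limma-voom and with limma on either FPKM scale, while leaving out 1 library gave 0 to 8 higher and 1 lower each time, while the log2 fold changes of LOC103938975 (3.96 to 5.22) and LOC103961663 (-3.32 to -2.37) kept their direction. No called gene named in the text turned its direction under any alternative. Scaling by library size alone moved the median log2 fold change of all genes to -0.06.

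The labels do not say whether the shared replicate numbers pair the libraries. The deviations of same-numbered libraries correlated at -0.04, 0.08 and 0.06, and not every library correlated best with its own number. With 3 libraries in each group these values cannot decide whether the libraries were paired. With the numbers as a replicate block, LOC103952209 had a log2 fold change of 4.08, 358 genes were called higher and 370 lower, and 6 listed genes were called higher and 2 lower, among the former LOC103934535 (log2 fold change 1.38, adjusted p = 0.0142).

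Depth limits the lowest genes: 3 counts correspond to 0.152 to 0.186 CPM, which leaves LOC103935164 and the untreated level of LOC103938975 unresolved.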
